A study of Mus musculus with 12 samples.

Results

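B cells recognize antigen through the B cell receptor, an immunoglobulin whose signal is passed on by the CD79 chains to the kinases BLK, LYN and SYK, then through the adaptor BLNK to the kinase BTK. CD22 is a lectin of the B cell surface that binds α2,6-linked sialic acid and restrains this signal, and ST6GAL1 is the Golgi enzyme that places this sialic acid on N-linked sugars. PAX5 is the transcription factor that holds B cells to their lineage, and MS4A1 (CD20) is a membrane protein of mature B cells. BTK also works in myeloid and mast cells, and BLNK and ST6GAL1 are made outside the B lineage as well, so that a signal for these genes does not by itself mark B cells.

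The 8 genes Cd79b, Ms4a1, Cd22, Blk, Pax5, Btk, Blnk and St6gal1 were read from the 750 genes that the nCounter mouse cancer immune panel measured in 12 breast tumors. They were chosen by symbol, with earlier results of these tumors known. St6gal1 had been picked in the study on the contrasts of the combination, and every group entered those, so all its contrasts are given as description, without a test. The tumors, described as triple negative, were of the K14-Cre;Brcaf/fTrp53f/f model, in which a keratin 14 promoter drives Cre in epithelium and floxed Brca1 and Trp53 alleles are deleted. They grew as transplants in the mammary fat pad of female FVB/129P2 mice, a syngeneic host, and all 4 groups shared this model and a host able to mount an immune response. Treatment began at 150 to 300 mm3. The 3 vehicle tumors came from mice given DMSO in saline intraperitoneally and saline into the tumor. The 3 olaparib tumors came from mice given this PARP inhibitor intraperitoneally at 50 mg/kg daily, with saline into the tumor. The 3 ADU-S100 tumors received 50 μg of this STING agonist in 40 μl once by intratumoral injection, with DMSO diluted in PBS given intraperitoneally. The 3 combination tumors received both drugs. All were taken 3 days after treatment started, and ages of the mice were not given in the sources used here. The probes were counted in 100 ng RNA from snap-frozen chunks, so that fewer cells of a type and less RNA per cell cannot be told apart.

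Depth set what could be seen. The deposited normalized counts are whole counts multiplied by 1 scaling factor per tumor, which is the normalized value of 1 count. The counts recovered by undoing this step summed to between 106206 and 1519471 per tumor. The factor was 0.81 to 0.824 in the combination tumors, 0.682 to 1.49 in vehicle, 1.43 to 2.85 in ADU-S100 and 0.589 to 10.5 in olaparib tumors, where the olaparib tumor 1517 had the fewest counts and the highest factor. The 30 genes with the lowest mean count, the members and other B lineage markers left out, were taken as the level of background and had a median of 3 counts in tumor 1517 and of 5 to 7.5 counts in the other 11. Counting intervals below are exact Poisson intervals at 95% and cover counting error only.

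The members fell into those near this background and those well above it. Blk, a kinase of the receptor, had 5, 6 and 7 counts in the vehicle tumors 1269, 1529 and 1536, 13, 10 and 7 in the ADU-S100 tumors 1506, 1512 and 1513, 8, 3 and 6 in the olaparib tumors 1510, 1517 and 1521, and 10, 8 and 5 in the combination tumors 1251, 1270 and 1539. Pax5, in the same order of tumors, had 9, 6 and 7 counts in vehicle, 6, 5 and 13 in ADU-S100, 9, 4 and 6 in olaparib and 6, 11 and 7 in combination tumors. Blk exceeded the highest of the 30 background genes of the same tumor in 0 of 12 tumors and Pax5 in 1, and the groups overlapped, so that at this depth neither could be told from the lowest genes of the panel. Ms4a1 had 11, 14 and 12 counts in vehicle, 10, 16 and 13 in ADU-S100, 14, 12 and 14 in olaparib and 17, 25 and 24 in combination tumors. Cd22 had 12, 15 and 29 counts in vehicle, 24, 12 and 11 in ADU-S100, 24, 7 and 29 in olaparib and 24, 37 and 26 in combination tumors. Ms4a1 exceeded the highest background gene of the same tumor in the 3 combination tumors and in 4 of the 9 others, and Cd22 in the 3 combination tumors and in 6 of the 9 others. The 5 lineage members together (Cd79b, Ms4a1, Cd22, Blk and Pax5) gave 27 to 67 counts in the 9 other tumors and 81, 133 and 101 counts in the combination tumors. Scaled for depth, this separation was lost, with 54.3, 97.4 and 75.4 CPM (counts scaled to the same total per tumor) in the combination against 31.6 to 254 in the others, and with summed normalized counts of 65.6, 110 and 82.8 against 32.7 to 283.

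**Figure D1:**
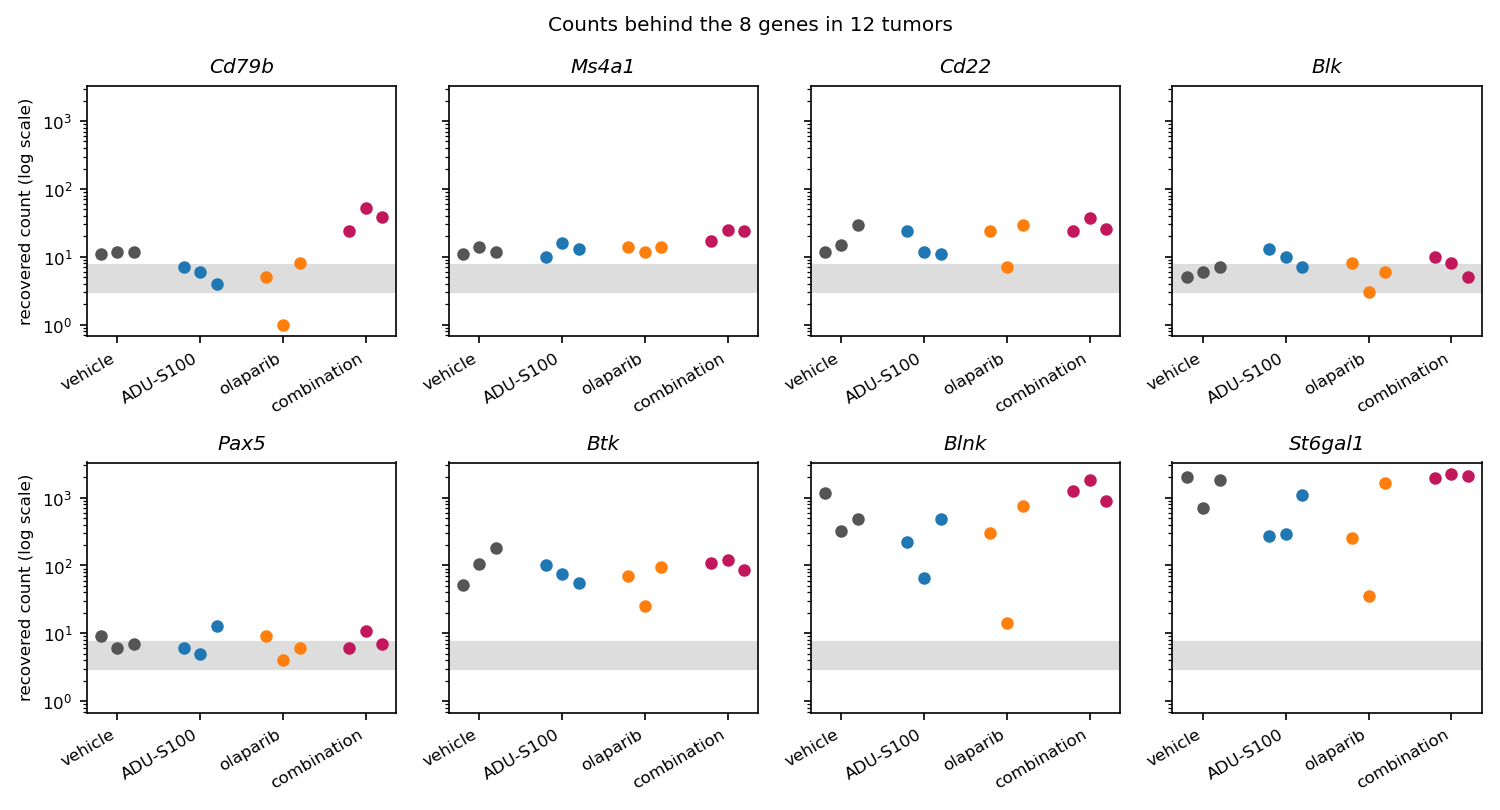
Counts recovered from the normalized values (log scale) of the 8 genes by treatment, 1 point per tumor and 3 tumors per group, with the tumors in the order of the text and a gray band at the median count of the 30 lowest genes, from 3 counts in the lowest tumor to 7.5 in the highest. Blk and Pax5 lie in or near the band in all groups, Cd79b leaves it most clearly in the combination tumors (24 to 52 counts), and Btk, Blnk and St6gal1 lie above it in all tumors.

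Cd79b, the signaling chain of the receptor, had the clearest pattern among the lineage members. It had 11, 12 and 12 counts in vehicle, 7, 6 and 4 in ADU-S100 and 5, 1 and 8 in olaparib tumors, against 24, 52 and 39 in combination tumors. It exceeded the highest background gene of the same tumor in the 3 combination tumors and in 0 of the 9 others. The counting intervals were 15.4 to 35.7, 38.8 to 68.2 and 27.7 to 53.3 for the combination tumors, and the highest upper bound among the other 9 was 21.0, so that only tumor 1251 had an interval that reached into theirs. After normalization the values were 7.50, 17.8 and 8.31 in vehicle, 19.9, 11.8 and 5.71 in ADU-S100, 9.74, 10.5 and 4.71 in olaparib and 19.4, 42.9 and 32.0 in combination tumors. The lowest combination tumor then stood above 8 of the 9 others, the exception being the ADU-S100 tumor 1506, whose 19.9 rested on 7 counts. The mean of log2(normalized count + 1) was higher by 1.53 in the combination than in the other 9 tumors, with a two-sided exact permutation p of 0.00909 (220 splits, smallest possible p 0.00455). After Benjamini-Hochberg adjustment over the 750 genes this p was 0.359, and 0 genes passed, while 8.53% of genes had an unadjusted p below 0.05. To pass at the smallest possible p alone, at least 69 genes would have had to share it, and 12 did. At a larger p still more genes would have been needed. The adjusted p thus depends on how many other genes reach low p-values and does not measure the size of this difference. Because Cd79b reached a value of 20 in only 2 tumors, it was left out of the limma tests. Its values gave log2 fold changes of the combination of 1.44 relative to vehicle, 1.35 relative to ADU-S100 and 1.80 relative to olaparib, and -0.36 for olaparib relative to vehicle. With the median count of the 30 lowest genes subtracted in each tumor first, a setting chosen after seeing the data, these combination values were 2.10, 3.68 and 4.28 and the olaparib value was -2.18. Counts below the subtracted median were set to 0, as in the olaparib tumors 1510 and 1517 and the ADU-S100 tumor 1513. The sizes of these values therefore depend on that floor and on the added 1.

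Of the 8 members, 2 (Cd79b and Ms4a1) had more counts in each combination tumor than in any of the 9 others, as did 12.4% of all genes. In normalized values this held for 0 of 8 members and for 2.93% of all genes. The combination tumors were all counted deeply, so counts were also compared with those of the 3 other tumors whose factor was below 1, namely the vehicle tumors 1269 and 1536 and the olaparib tumor 1521. Here Cd79b summed to 115 counts in the combination against 31 (3.71 times), and Ms4a1 to 66 against 37 (1.78 times), in both cases without overlap, as for 16.7% of all genes. The other lineage members overlapped between these tumors, with 87 against 70 counts for Cd22, 23 against 18 for Blk and 24 against 22 for Pax5. Of the 10 further B lineage markers of the panel, 2 were higher without overlap. Tnfrsf13b, a receptor for B cell survival factors, was 1 of them, with 116 against 64 counts (1.81 times). Summed counts were lower in the combination for Tnfrsf13c (52 against 76), Fcer2a (17 against 26) and Cxcr5 (15 against 18), and higher for the rest. Cd79a, the partner chain of Cd79b, had only 6, 7 and 8 counts in the combination tumors and 3 to 11 in the other 9. Cr2, the complement receptor, had 10, 14 and 13 counts in the combination and 2 to 11 in the others.

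Normalization changed the order of the groups for the near-background genes. Ms4a1 reached a normalized count of 126 in the olaparib tumor 1517 from 12 counts (interval 65.0 to 220), but was 13.8, 20.6 and 19.7 in the combination tumors from 17, 25 and 24 counts. Blk likewise was 31.4 in tumor 1517 from 3 counts and 37.0 in the ADU-S100 tumor 1506 from 13, against 8.10, 6.60 and 4.10 in combination tumors. Over the 12 tumors, log2 values followed the log2 factor with r = 0.94 for Ms4a1, 0.92 for Pax5, 0.89 for Blk and 0.79 for both Cd22 and Btk, but with r = -0.01 for Cd79b, -0.58 for Blnk and -0.79 for St6gal1. These are descriptions, since the factor is itself part of each normalized value. The permutation differences of the combination from the 9 others were -0.21 for Ms4a1 (exact p = 0.827), -0.16 for Cd22 (exact p = 0.841), -0.77 for Blk (exact p = 0.3) and -0.72 for Pax5 (exact p = 0.273). Among the 6 tumors with a factor below 1 all 4 differences were positive instead, at 1.06, 0.68, 0.53 and 0.36. Their exact permutation p-values were 0.1, 0.2, 0.2 and 0.4, where 3 tumors against 3 cannot go below 0.1. The factor still differed among these tumors, at 0.81 to 0.824 in the combination and 0.589 to 0.693 in the others, and is part of these values too.

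**Figure D2:**
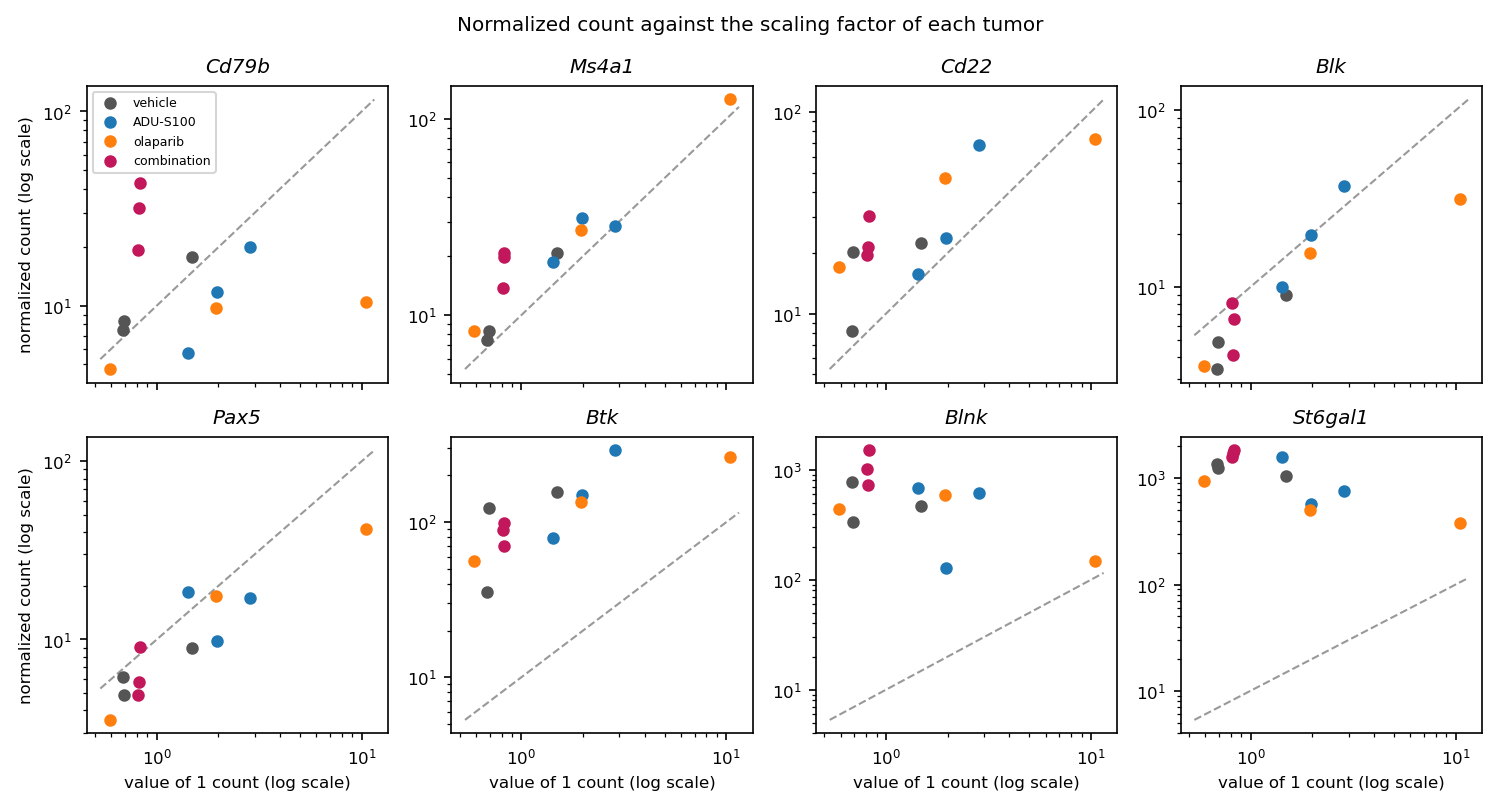
Normalized count (log scale) of each gene against the scaling factor of the tumor, the value of 1 count (log scale), 1 point per tumor, with a dashed line where 10 counts would lie. Ms4a1, Blk and Pax5 rise with the factor (r = 0.94, 0.89 and 0.92 on log scales), Cd79b departs from it in the 3 combination tumors, and Blnk and St6gal1 lie above it in every tumor and are lower at high factors (r = -0.58 and -0.79).

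Btk, the kinase downstream of the receptor, was counted in every tumor, with normalized counts of 35.5, 158 and 124 in vehicle, 291, 149 and 78.5 in ADU-S100, 134, 262 and 56.0 in olaparib and 89.1, 98.9 and 70.5 in combination tumors. The groups overlapped throughout. Against vehicle its log2 fold change was -0.06 (SE 0.70) in the combination, 0.76 in ADU-S100 and 0.50 in olaparib tumors, with limma adjusted p-values of 0.989, 0.809 and 0.780. Myeloid cells express Btk too, and the summed normalized level of 11 macrophage and monocyte markers was 4384 to 7706 in vehicle, 4804 to 9727 in ADU-S100, 4199 to 7503 in olaparib and 6191 to 8346 in combination tumors, with 0 of the 11 at the floor in any tumor. Their part in the Btk values was not tested.

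Blnk was counted far above background, though its cell of origin is not known in these chunks. Its normalized counts were 783, 473 and 335 in vehicle, 621, 128 and 685 in ADU-S100, 592, 147 and 442 in olaparib and 1026, 1505 and 731 in combination tumors. The combination tumors were the 3 highest but for the vehicle tumor 1269 (783), which exceeded tumor 1539 (731). The group means were 530 ± 230 in vehicle, 478 ± 305 in ADU-S100, 394 ± 227 in olaparib and 1087 ± 391 in combination tumors (SD, n = 3 each). On the log2 scale Blnk was higher in the combination by 1.06 (SE 0.72) than in vehicle, by 1.46 than in ADU-S100 and by 1.62 than in olaparib tumors, with limma adjusted p-values of 0.823, 0.534 and 0.594, so no difference passed. The combination did not overlap with either single treatment but did overlap with vehicle. Against all 9 others the difference was 1.38 (exact permutation p = 0.0455, adjusted 0.533). Among the 6 tumors with a factor below 1 the recovered counts were 1.67 times those of the other 3, with overlap. The normalized means of these tumors were 1087 against 520, also with overlap. The low Blnk value of tumor 1517 rested on 14 counts (interval of the normalized value 80.2 to 246), and that of tumor 1512 on 65. Without tumor 1512 the difference from ADU-S100 was 0.67, and without tumor 1517 the difference from olaparib was 1.02.

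St6gal1, ranked 623 of 750 by mean count, was the best counted member. Its normalized counts were 1357, 1057 and 1255 in vehicle, 766, 576 and 1581 in ADU-S100, 499, 377 and 948 in olaparib and 1577, 1838 and 1729 in combination tumors. The 3 combination tumors lay above all vehicle and all olaparib tumors, and the ADU-S100 tumor 1513 lay just above the lowest of them. The order of the group means was combination (1715 ± 131), vehicle (1223 ± 153), ADU-S100 (974 ± 534) and olaparib (608 ± 301; SD, n = 3 each), of which ADU-S100 overlapped with each of the other groups, and the other groups did not overlap with one another. As description, the log2 fold change of the combination was 0.49 (SE 0.46) relative to vehicle, 0.95 relative to ADU-S100 alone and 1.60 relative to olaparib alone. The single treatments share tumors with these contrasts and are likewise given without a test. The log2 fold change of olaparib relative to vehicle was -1.11 (SE 0.46), or 0.463 times, with all 3 olaparib tumors below all 3 vehicle tumors, as in 0.933% of the genes of the panel. With the log2 factor as a covariate this value was -0.65. For ADU-S100 relative to vehicle it was -0.46 (SE 0.46). In recovered counts, not scaled for depth, St6gal1 summed to 6286 in the combination against 5410 in the 3 others with a factor below 1 (1.16 times, with overlap). The factors still differed among these tumors, and in normalized counts their means were 1715 against 1187, without overlap. The olaparib tumor 1521 had 1609 counts of a total of 1392128, and the vehicle tumor 1536 had 1811 of 1048331. Their normalized counts were 948 and 1255. The olaparib tumors 1510 and 1517 had 256 and 36 counts.

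**Figure D3:**
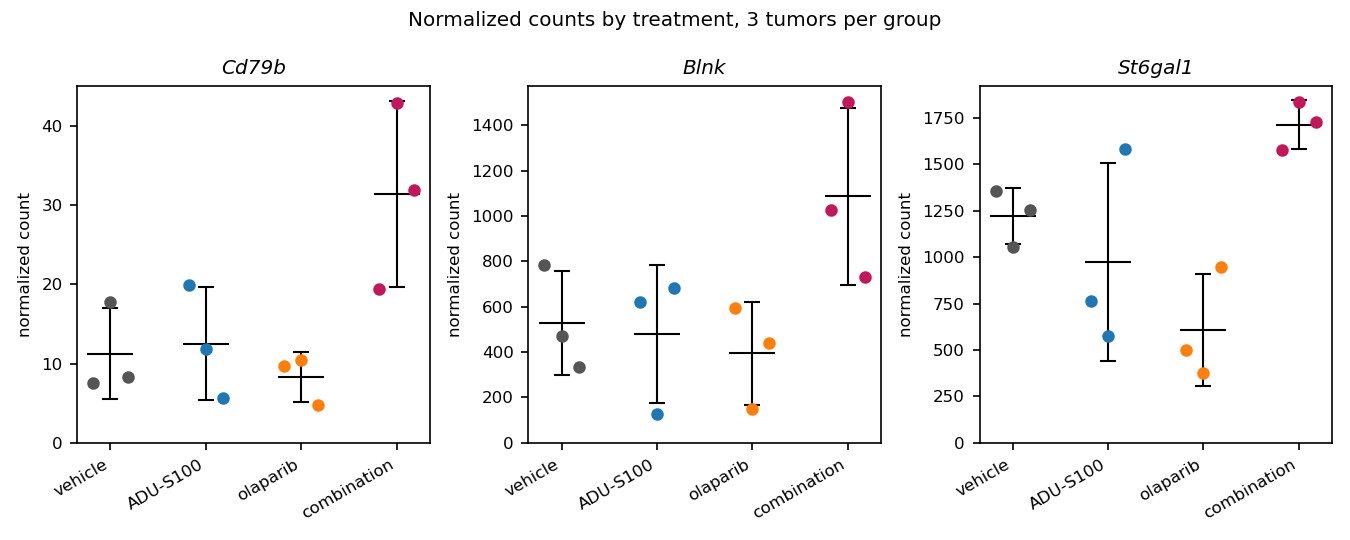
Normalized counts of Cd79b, Blnk and St6gal1 by treatment, with 1 point per tumor, a horizontal bar at the mean and error bars of 1 SD (n = 3), and axes that start at 0. The combination group has the highest mean for each gene, with 1 tumor of another group above its lowest tumor in each panel.

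The sequences in front of the start sites are shown for Blnk and St6gal1, as the members with counts well above background whose group mean was highest in the combination. The RefSeq windows on GRCm38.p6 run from 250 bases before to 50 bases after each start site, 5′ to 3′ on the gene's strand. They were at hand for 5 of the 8 members (Cd22, Pax5, Btk, Blnk and St6gal1, 7 windows). The letters of the octamer bound by POU factors of B cells, ATTTGCAT, of the PU box, GAGGAA, and of an interferon response core, GAAANN followed by GAAA, were searched on both strands. The Blnk window holds the octamer, in capitals, with its first base at position -130 from the start, as do 1.74% of 32851 mouse windows of this length. St6gal1 has 3 start sites, and none of its windows holds any of the letters searched. The PU box stands in the Btk window, as in 28.3% of all windows, and the interferon core stands in none of the 7, against 3.44% of all windows. These are matches of letters and not sites of binding.
Blnk, chr19:40994172-40994471, minus strand: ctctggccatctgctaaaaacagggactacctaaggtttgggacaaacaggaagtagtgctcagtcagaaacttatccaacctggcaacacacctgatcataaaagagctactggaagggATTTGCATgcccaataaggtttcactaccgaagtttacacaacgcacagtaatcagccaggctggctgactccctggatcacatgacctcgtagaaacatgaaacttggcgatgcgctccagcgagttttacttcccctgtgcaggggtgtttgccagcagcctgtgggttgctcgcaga
St6gal1 start 1, chr16:23224490-23224789, plus strand: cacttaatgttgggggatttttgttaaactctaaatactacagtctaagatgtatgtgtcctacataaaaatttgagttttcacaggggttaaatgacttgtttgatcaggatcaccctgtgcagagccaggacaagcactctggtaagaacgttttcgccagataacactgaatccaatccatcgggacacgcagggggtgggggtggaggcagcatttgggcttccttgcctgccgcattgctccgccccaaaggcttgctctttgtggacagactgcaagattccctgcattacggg
St6gal1 start 2, chr16:23225771-23226070, plus strand: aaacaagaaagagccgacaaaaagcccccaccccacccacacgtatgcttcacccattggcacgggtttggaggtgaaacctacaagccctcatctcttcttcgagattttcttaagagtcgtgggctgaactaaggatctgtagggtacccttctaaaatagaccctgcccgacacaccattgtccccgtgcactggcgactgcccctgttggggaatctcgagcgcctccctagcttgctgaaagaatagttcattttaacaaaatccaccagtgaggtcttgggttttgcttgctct
St6gal1 start 3, chr16:23290220-23290519, plus strand: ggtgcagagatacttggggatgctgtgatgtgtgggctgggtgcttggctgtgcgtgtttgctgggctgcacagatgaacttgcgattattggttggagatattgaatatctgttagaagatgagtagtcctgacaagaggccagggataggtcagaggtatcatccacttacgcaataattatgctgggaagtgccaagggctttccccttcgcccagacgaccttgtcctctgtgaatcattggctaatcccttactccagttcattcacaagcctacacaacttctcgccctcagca

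Genes with log2 values most like those of St6gal1 over the 12 tumors included Lbp, the lipopolysaccharide binding protein (r = 0.96, rho = 0.92), and Tgfb2, a TGF-β ligand (r = 0.93). Lbp normalized counts were 5144 to 9793 in vehicle, 2450 to 8740 in ADU-S100, 1255 to 5278 in olaparib and 9722 to 14991 in combination tumors, and thus followed the group order of St6gal1. Blnk was most like Xbp1, a factor of secretory cells (r = 0.88, rho = 0.91), S100b, a calcium binding protein (r = 0.87), and Il13ra1, a chain of the IL-13 receptor (r = 0.85). St6gal1 and Blnk correlated with r = 0.75 (rho = 0.78), and with r = 0.64 within the groups. All these genes were picked for their likeness and share each tumor's factor, so the values describe them and carry no test. Leaving out the tumors 1512 and 1517 lowered r of S100b with Blnk to 0.54.

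Over the 5 comparisons, 0 members passed limma's adjusted threshold, as did 0% of the 689 genes tested. Tests covered 4 members (Ms4a1, Cd22, Btk and Blnk), since St6gal1 was given as description and Cd79b, Blk and Pax5 fell below the filter of a value of 20 in 3 tumors. At an unadjusted p below 0.05, 53 genes (7.69%) differed between combination and vehicle, 33 (4.79%) between ADU-S100 and vehicle, 50 (7.26%) between olaparib and vehicle, 63 (9.14%) between combination and ADU-S100 and 50 (7.26%) between combination and olaparib. Of the 4 members tested this was only Blnk in combination against olaparib. On recovered counts, edgeR (quasi-likelihood) also called 0 genes in each comparison. Over all tested genes the median log2 fold change was 0.21, 0.44, 0.45, -0.22 and -0.15 in these comparisons, in the same order. Combination values lay above all vehicle values for 2 members (Cd79b and St6gal1; 17.3% of all genes), above all ADU-S100 values for 1 (Blnk; 9.6%) and above all olaparib values for 3 (Cd79b, Blnk and St6gal1; 10.3%). They lay below all vehicle values and below all olaparib values for 0 members (1.87% and 2% of all genes), no member had all ADU-S100 values below all vehicle values (0.933%), and none had all olaparib values above all vehicle values (4%). Blk and Pax5 were lower in the combination than in ADU-S100 tumors without overlap, as were 22.7% of genes, and higher in ADU-S100 than in vehicle tumors, as were 15.9%, in both cases on 5 to 13 counts. Ms4a1 and Cd22 had log2 fold changes of 1.42 and 1.28 in olaparib against vehicle (limma adjusted p = 0.582 for both), with tumor 1517 the highest of its group for each.

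**Figure D4:**
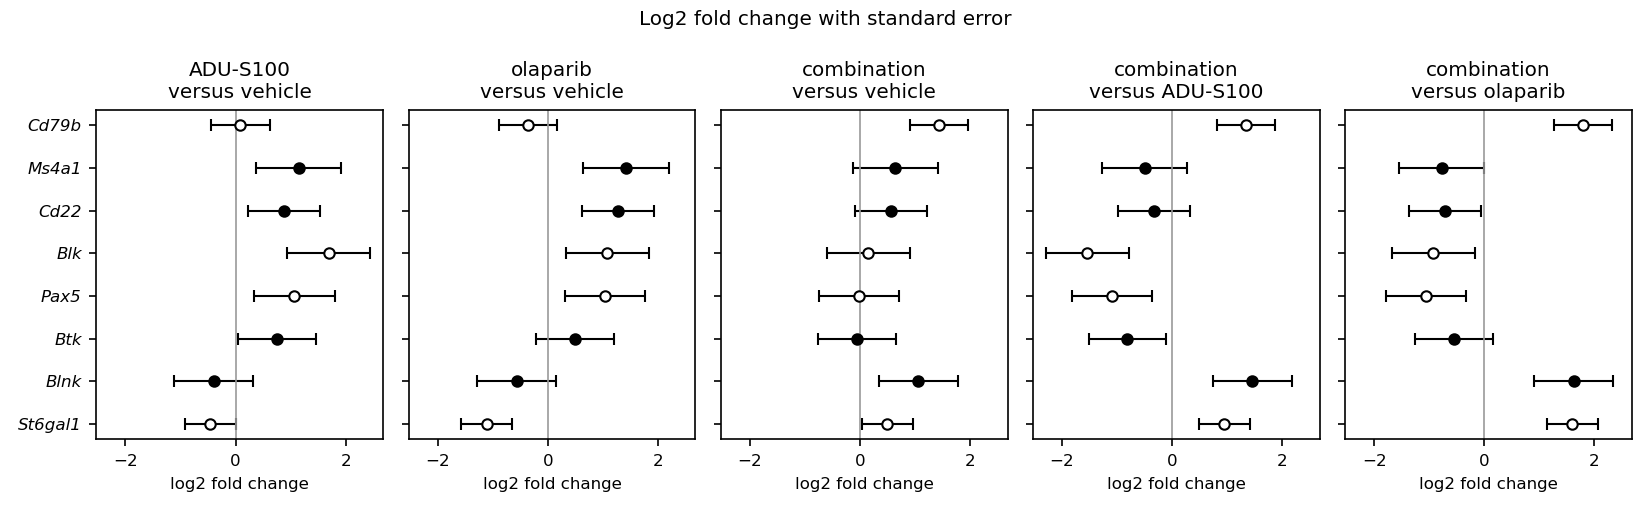
Log2 fold change with its standard error for each gene in the 5 comparisons (limma, log2(normalized count + 1), 3 tumors per group). Filled points were tested, and open points are values without a test (genes below the filter, fitted without it, and St6gal1). Cd79b, Blnk and St6gal1 lie to the right of 0 in all 3 combination comparisons, and none of the tested values passed after adjustment.

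The other genes of receptor signaling did not pass either. Of the 24 listed genes on the panel that are no members, 21 were tested between combination and vehicle, of which 15 had higher and 6 lower values and 0 passed, with a median log2 fold change of 0.26 against 0.21 over all genes. Those with the largest differences included Pik3cg, a PI3-kinase of leukocytes, at 1.88 times the vehicle level (SE 0.60 on the log2 scale, limma adjusted p = 0.823), Bcl10, an adaptor toward NF-κB, at 1.57 times, and Syk, the kinase upstream of Blnk, at 1.56 times. T cells use part of this pathway too. A list of 10 T cell markers summed to 118 to 257 in vehicle, 221 to 516 in ADU-S100, 155 to 734 in olaparib and 373 to 595 in combination tumors, with 8 of 8 tested genes higher in the combination than in vehicle and 0 passing. Its part in the values of these genes was not tested. Of 23 tested genes of B cell survival and differentiation, 20 had higher values in the combination than in vehicle, with a median log2 fold change of 0.62 and 0 passing, where 65.3% of all genes were higher. The single treatments stood close to this, with 21 of 23 higher than vehicle in olaparib (median 0.56; 74.6% of all genes) and 18 of 23 in ADU-S100 tumors (median 0.44; 78.2%). Relative to the single treatments the combination had higher values for 11 of 23 against ADU-S100 (median -0.15; 40.3% of all genes) and for 9 of 23 against olaparib (median -0.06; 41.4%), with 0 passing in each comparison. Of 6 sialic acid binding genes, 4 had higher values than vehicle in the combination (median 0.31; 65.3% of all genes), 4 in ADU-S100 (median 0.11; 78.2%) and 5 in olaparib tumors (median 0.23; 74.6%), with 0 passing.

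Markers of the cells that could hold these genes are given for comparison. The 10 B lineage markers that are no members summed to normalized counts of 102 to 462 in vehicle, 207 to 840 in ADU-S100, 101 to 1153 in olaparib and 203 to 290 in combination tumors, and overlapped between all groups. Fcer2a, the low affinity IgE receptor, was at the floor in 1 combination tumor. The 4 tested of these 10 had a median log2 fold change of 0.12 between combination and vehicle, 0.86 between ADU-S100 and vehicle and 0.65 between olaparib and vehicle. Over all tested genes these medians were 0.21, 0.44 and 0.45. All 4 had lower values in the combination than in ADU-S100 (median -0.62) and olaparib tumors (median -0.56), and 0 passed in any comparison. Over all tested genes the medians were -0.22 and -0.15 here, with only 40.3% and 41.4% of genes higher in the combination. Ptprc (CD45), the marker of all leukocytes, was 152 to 510 in vehicle, 287 to 1003 in ADU-S100, 193 to 456 in olaparib and 390 to 423 in combination tumors. The 3 epithelial markers on the panel summed to 10802 to 21499 in vehicle, 11861 to 19063 in ADU-S100, 12324 to 22177 in olaparib and 17779 to 20694 in combination tumors, so that epithelial transcripts were counted in every chunk. The 3 plasmacytoid dendritic cell markers on the panel summed to 1070 to 3790 in vehicle, 2255 to 6016 in ADU-S100, 2975 to 7053 in olaparib and 4833 to 6599 in combination tumors, so that the combination lay above vehicle without overlap but overlapped with both single treatments. The 4 mast cell markers summed to 574 to 3651 in vehicle, 570 to 2501 in ADU-S100, 1531 to 1625 in olaparib and 2319 to 3099 in combination tumors. This sum lay above olaparib without overlap in the combination but overlapped with the others. Gene by gene, only 1 of the 4 was higher and 3 were lower in the combination than in olaparib tumors (median log2 fold change -0.80). The same split held against vehicle (median -0.17) and ADU-S100 (median -0.70), with 0 passing. The part of leukocyte, dendritic cell, mast cell and epithelial content in the values of Btk, Blnk and St6gal1 was not tested.

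The tumor numbers begin with 12 (the vehicle tumor 1269 and the combination tumors 1251 and 1270) or 15 (the remaining tumors), a difference whose meaning is not given. Within the 15 series the 1 combination tumor, 1539, was above each of the 8 others for Cd79b (32.0 against 4.71 to 19.9), Blnk (731 against 128 to 685) and St6gal1 (1729 against 377 to 1581). Its Ms4a1 value of 19.7 was above only 3 of the 8 in normalized counts but its 24 counts were above all 8 (10 to 16). Within the 12 series the combination tumors exceeded the vehicle tumor for the same 3 genes, at 19.4 and 42.9 against 7.50 for Cd79b.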

How the data were processed

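RNA of 12 tumors (3 per group, mapped from the labels) was counted with the nCounter panel. Per the labels and methods, the authors processed the counts with nSolver (background correction, then scaling by positive controls and by the housekeeping genes' geometric mean) and discarded raw counts below the negative controls. The deposited values are a signal (normalized counts) floored at 1. Counts were recovered from the step of the low values in each tumor, with at least 99.87% of values whole within 0.01 of a count, and 12 values at the floor were set to 0. A fit over all 12 tumors (limma 3.58.1, R 4.3.3) used log2(value + 1), which understates changes of low genes, for 689 genes with at least 20 in at least 3 tumors, and Benjamini-Hochberg adjustment (threshold 0.05). The permutation test was exact and two-sided over 750 genes. Nothing says whether tumors shared a donor chunk, so p-values measure the spread between these tumors.

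The genes named were the 8 members, Cd79a, Cr2 and Ptprc, the 4 receptor signaling genes with the largest combination against vehicle difference, and the 3 most correlated with St6gal1 and with Blnk. Some genes under this rule are not reported here. Other names (Tnfrsf13b, Tnfrsf13c, Fcer2a and Cxcr5) followed after values were seen. The members and lists were chosen with earlier results of these data known. Scripts were tested on simulated data. Alternatives were edgeR 4.0.16, other scalings, filters and pseudocounts, the factor or number series as a term, background subtraction, the methods' t-test, fits on the 2 groups compared, and each tumor left out.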

Additional observations from a re-analysis of the deposited data

How the results depend on the processing

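Over 27 alternative settings, 30 log2 fold changes of 6 members (Cd79b, Ms4a1, Cd22, Btk, Blnk and St6gal1) gave 760 values, of which 718 kept direction and side of the threshold, 35 reversed, 7 kept direction but moved beyond the spread, and 0 newly passed where a test was given, which leaves out St6gal1. The 7 were all of Cd79b, for olaparib against vehicle (-0.36) -1.19 with quantile normalization, -2.21 with the Usp9y count subtracted and -2.18 with the median of the 30 lowest genes subtracted, for the combination against olaparib (1.80) 4.29 and 4.28 with these subtractions, and with the latter 2.10 against vehicle and 3.68 against ADU-S100. Counts below the subtracted level were set to 0 in both subtractions, so the values after subtraction depend on that floor and on the added 1. Without the vehicle tumor 1529 or the olaparib tumor 1521 Cd79b for olaparib against vehicle was 0.00 and -0.04. St6gal1 reversed in 0 of 130. The smallest adjusted p of a tested member was 0.0525 (limma, Ms4a1, olaparib against vehicle without the olaparib tumor 1521). No cause of the changes below was tested.

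Genes called between combination and vehicle, 0 in the main fit, were 4 with the log2 factor as a covariate (Ccl22, Klra7, Slamf7 and Xcl1), 2 in a fit on the 2 groups compared (Cxcl11 and Gbp5) and 3 with the methods' t-test after Benjamini-Hochberg (Cxcl11, Gbp5 and Itgal), all named after their values were seen. With the Benjamini-Yekutieli adjustment that the study used, added later, the methods' t-test called 0 genes in each comparison, with 11 to 122 at an unadjusted p below 0.05. Between combination and ADU-S100, 1 gene (H2-Aa) was called with a pseudocount of 10, with a filter of 50, with each tumor scaled to the same median, and without the ADU-S100 tumor 1506 (0 to 1 with each tumor left out in turn). With each tumor left out, 0 to 55 genes were called between olaparib and vehicle and 0 to 54 between combination and olaparib, the highest counts being those without tumor 1521. St6gal1 was the only member among these calls, in the combination against olaparib, a contrast on which it had been picked.

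With the log2 factor as a covariate, the following turned: Cd79b for ADU-S100 against vehicle (-0.33), Ms4a1 for the combination against ADU-S100 (0.68) and olaparib (0.58), Cd22 likewise (0.41 and 0.13), Btk for the combination against vehicle (0.021), ADU-S100 (0.013) and olaparib (0.40) and for olaparib against vehicle (-0.38), and Blnk for ADU-S100 against vehicle (0.035). Quantile normalization turned Cd79b (-0.96) and Cd22 (-0.10) for ADU-S100 against vehicle, and Ms4a1 (0.25) and Cd22 (0.30) for the combination against ADU-S100. With the number series as a term Cd79b for ADU-S100 against vehicle was -0.041, Cd22 for the combination against ADU-S100 0.033 and Btk for the combination against vehicle 0.20. In the 15 series alone Cd79b for ADU-S100 against vehicle was -0.12 and Btk for olaparib against vehicle -0.15, which was also -0.15 with edgeR and TMM. Scaling to the same median gave -0.37, and subtracting the median of the 30 lowest genes -1.58, for Cd79b in ADU-S100 against vehicle. The same subtraction gave 0.15 for Cd22 in the combination against ADU-S100, and 0.11 for Ms4a1 and 0.13 for Cd22 in the combination against the 9 others. In the 6 tumors with a factor below 1, that last difference was 1.06 for Ms4a1, 0.68 for Cd22, 0.53 for Blk, 0.36 for Pax5 and 0.44 for Btk. This setting and the subtraction were chosen after seeing the data.

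With each tumor left out, Cd79b for ADU-S100 against vehicle ranged from -0.30 to 0.52, Ms4a1 for combination against olaparib from -1.67 to 0.21, Cd22 for combination against ADU-S100 from -0.76 to 0.26, Btk from -0.70 to 0.35 for combination and -0.15 to 1.07 for olaparib against vehicle, and Blnk from -0.82 to 0.39 for ADU-S100 and -0.97 to 0.037 for olaparib against vehicle. Against the 9 others Ms4a1 ranged from -0.38 to 0.11 and Cd22 from -0.36 to 0.017. No paired analysis was possible because the tumor numbers are not shared between groups. Counts under about 20 limit Blk, Pax5, Cd79b and Ms4a1, and 3 tumors against 3 limit all comparisons.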
